A study of Mus musculus with 16 samples.

Results

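The CD28 family is a group of T cell surface receptors that adjust the response to antigen. Cd28, Ctla4, Icos, Pdcd1 (which encodes PD-1) and Btla were taken by symbol, 5 of the 19531 genes with a probe set of their own on the arrays. Each had exactly 1 probe set (10346783, 10346790, 10346799, 10356866 and 10435982 in that order), and all 5 were bright enough to be among the 12798 genes tested. Spleens of males aged 6 weeks gave the CD4+ T cells, and their RNA was measured on Mouse Gene 1.0 ST arrays (Affymetrix). Regulatory T cells (Treg) were CD3+CD4+GFP+ cells and conventional T cells (Tconv) CD3+CD4+GFP- cells, sorted in 2 passes on a MoFlo instrument to a stated purity above 99.0%. All mice carried a GFP reporter at Foxp3, the gene of the transcription factor that defines Treg, so none of the groups is free of a modified Foxp3 allele. In Foxp3-GFP mice (fusion) GFP is part of the Foxp3 protein. In Foxp3-IRES-GFP mice (ires) GFP is made as a protein of its own from the Foxp3 transcript. Each allele was studied on the NOD background, a strain prone to autoimmune diabetes, and on the B6 background. Treg fusion NOD, Treg ires NOD, Treg fusion B6, Treg ires B6 and the 4 matching Tconv groups had 2 arrays each, 16 in all.

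CD28 binds CD80 and CD86 on antigen-presenting cells and gives the costimulatory signal that a naive T cell needs beside its antigen receptor. CTLA-4 binds the same ligands more tightly and restrains T cells; Treg hold it at high levels, and mice without it die of lymphoproliferation. ICOS is a second costimulatory receptor, bound by ICOS ligand, and is carried by activated, follicular helper and effector regulatory T cells. PD-1, bound by PD-L1 and PD-L2, and BTLA, bound by HVEM, are inhibitory receptors that recruit phosphatases.

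In the RefSeq annotation of GRCm38.p6, Cd28, Ctla4 and Icos lie next to each other on chromosome 1, with 0 protein-coding genes between Cd28 and Ctla4 and 0 between Ctla4 and Icos. Pdcd1 lies farther along chromosome 1, with 278 protein-coding genes between it and Icos, and Btla lies on chromosome 16. RefSeq promoter windows, which run from 250 bases before to 50 bases after the annotated start, were matched for Ctla4, Pdcd1 and Btla, and not for Cd28 and Icos. The start is the first base of the annotated gene for Ctla4 and Pdcd1, whereas the Btla window uses a start inside the gene. All matched windows are shown, because Foxp3 (a forkhead factor) and NFAT are known to act at genes of this family. Capitals mark GGAAA (the core letters bound by NFAT) and TGTTT (the core of a forkhead site), on either strand, and the windows are 5′ to 3′ on the gene's strand in GRCm38.p6. No marked letters of the different motifs overlap.
Ctla4, chr1:60908775-60909074, plus strand: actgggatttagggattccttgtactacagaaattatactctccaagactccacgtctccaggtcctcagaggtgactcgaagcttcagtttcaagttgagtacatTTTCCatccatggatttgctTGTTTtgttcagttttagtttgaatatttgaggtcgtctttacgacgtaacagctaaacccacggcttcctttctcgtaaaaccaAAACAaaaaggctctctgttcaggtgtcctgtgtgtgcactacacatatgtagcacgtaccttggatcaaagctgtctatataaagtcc
Pdcd1, chr1:94052504-94052803, minus strand: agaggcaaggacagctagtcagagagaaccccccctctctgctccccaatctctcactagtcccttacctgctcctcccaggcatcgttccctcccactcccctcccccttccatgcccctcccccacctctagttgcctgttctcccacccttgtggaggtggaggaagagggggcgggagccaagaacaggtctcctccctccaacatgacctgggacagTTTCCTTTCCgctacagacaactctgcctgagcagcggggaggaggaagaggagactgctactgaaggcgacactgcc
Btla, chr16:45224087-45224386, plus strand: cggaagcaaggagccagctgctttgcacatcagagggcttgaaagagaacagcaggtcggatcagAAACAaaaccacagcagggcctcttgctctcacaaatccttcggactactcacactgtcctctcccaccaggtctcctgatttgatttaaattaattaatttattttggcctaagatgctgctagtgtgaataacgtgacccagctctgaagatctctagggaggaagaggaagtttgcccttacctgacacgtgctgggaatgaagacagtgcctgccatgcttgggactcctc
The Ctla4 window held 1 match to GGAAA, starting 144 bases before the start, and 2 to TGTTT, at 124 and 39 bases before it. The Pdcd1 window held 2 matches to GGAAA, at 28 and 23 bases before the start, and 0 to TGTTT. The Btla window held 0 matches to GGAAA and 1 to TGTTT, at 185 bases before the start. The last motif searched on both strands, TGANTCA (the AP-1 site), had 0 matches in these windows. Of 32851 such windows in the RefSeq table, 61.3% held GGAAA, 50.5% held TGTTT and 7.8% held TGANTCA, so matches to the shorter motifs are common, and a match is a description of letters only.

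The deposited intensities are used here as log2 values, and a difference is one of log2 values, with its SE, estimated by limma on the 16 arrays together, and is called so when its Benjamini-Hochberg adjusted p over the 12798 genes was under 0.05. Array medians ranged over intensities of 86.7 to 99.0, and paired arrays of a group differed over all genes with an SD of 0.18 to 0.25 on the log2 scale. The labels do not say whether the 2 arrays came from separate mice or pools, so the p-values cover array-to-array spread that may be only technical, and with 2 arrays a group the precision is low. Signals of different probe sets were not set against each other.

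The first question was how the receptors differ between Treg and Tconv. Ctla4, Icos and Pdcd1 were higher in Treg, by 19.2-fold, 3.49-fold and 2.27-fold over the 4 lines, while Cd28 and Btla were lower by 1.13-fold and 1.21-fold. Of the 5 receptor genes 3 were called higher and 2 lower; across all tested genes 28.6% were called, 16.7% higher and 11.9% lower. The median difference of the 5 was 1.19, against -0.01 over all tested genes. In bulk samples, fewer cells with a transcript and less of it per cell cannot be told apart.

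Ctla4, an inhibitory receptor, had log2 values of 11.43 and 11.50 in Treg fusion NOD, 11.05 and 11.08 in Treg ires NOD, 12.37 and 12.00 in Treg fusion B6, and 11.58 and 11.66 in Treg ires B6. In Tconv the values were 7.37 and 7.71 in fusion NOD, 7.10 and 6.68 in ires NOD, 7.13 and 7.73 in fusion B6, and 6.97 and 7.85 in ires B6. All Treg arrays lay above all Tconv arrays, and both Treg fusion B6 arrays stood above the rest. The difference was 4.27 ± 0.12 (95% interval 4.02 to 4.51, adjusted p = 3.02e-15). It was 4.05 ± 0.17 in NOD and 4.48 ± 0.17 in B6, and by line it ran between 3.93 (fusion NOD) and 4.76 (fusion B6).

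Icos had 11.13 and 11.07 in Treg fusion NOD, 10.39 and 10.49 in Treg ires NOD, 11.64 and 11.40 in Treg fusion B6, and 10.82 and 10.61 in Treg ires B6. The Tconv values were 8.69 and 8.98 in fusion NOD, 9.23 and 8.95 in ires NOD, 9.21 and 9.46 in fusion B6, and 9.10 and 9.49 in ires B6. Treg and Tconv did not overlap, and within Treg both pairs of fusion arrays lay above all ires arrays. The difference between cell types was 1.80 ± 0.08 (95% interval 1.64 to 1.97, adjusted p = 1.68e-12), with 1.81 ± 0.11 in NOD and 1.80 ± 0.11 in B6. By line it was 2.27 in fusion NOD, 1.35 in ires NOD, 2.19 in fusion B6 and 1.42 in ires B6, so the fusion lines had the wider gap on both backgrounds.

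Pdcd1 had 9.03 and 9.02 in Treg fusion NOD, 9.15 and 9.29 in Treg ires NOD, 9.28 and 9.30 in Treg fusion B6, and 9.23 and 9.42 in Treg ires B6. In Tconv it had 8.66 and 8.46 in fusion NOD, 8.31 and 8.33 in ires NOD, 7.65 and 7.72 in fusion B6, and 7.23 and 7.88 in ires B6. The Treg arrays were close to each other whatever the line, whereas every NOD Tconv array lay above every B6 Tconv array. The difference between cell types was 1.19 ± 0.08 over the lines (adjusted p = 8.95e-10), but 0.68 ± 0.11 in NOD (adjusted p = 1.82e-04) and 1.69 ± 0.11 in B6 (adjusted p = 1.84e-09).

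Cd28 ran from 10.68 (median 10.82) to 10.97 in Treg and from 10.93 (median 11.00) to 11.12 in Tconv, overlapping ranges. Its difference of -0.18 ± 0.05 passed the test (95% interval -0.29 to -0.06, adjusted p = 0.0179). Without Tconv ires NOD replicate 1, the highest array, it was -0.16 with an adjusted p of 0.0544. In B6 alone Cd28 was lower in Treg by -0.28 ± 0.08 (adjusted p = 0.011; 0.054 without Treg ires B6 replicate 2). In NOD it differed by -0.07 ± 0.08 and was not called.

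Btla ran from 9.32 (median 9.64) to 10.02 in Treg and from 9.64 (median 9.85) to 10.18 in Tconv, again overlapping. The difference was -0.27 ± 0.08 (95% interval -0.43 to -0.11, adjusted p = 0.0118). In B6 it was -0.33 ± 0.11 (adjusted p = 0.0388), a call lost in 6 of the 16 fits that left out 1 array and under 3 other settings. In NOD it was -0.21 ± 0.11 and not called. Among all tested genes 18.4% were called between Treg and Tconv in NOD (10.8% higher), where 3 of the 5 receptors were called higher. In B6 20.8% were called (14.1% higher and 6.74% lower), where 3 receptors were called higher and 2 lower.

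**Figure D1:**
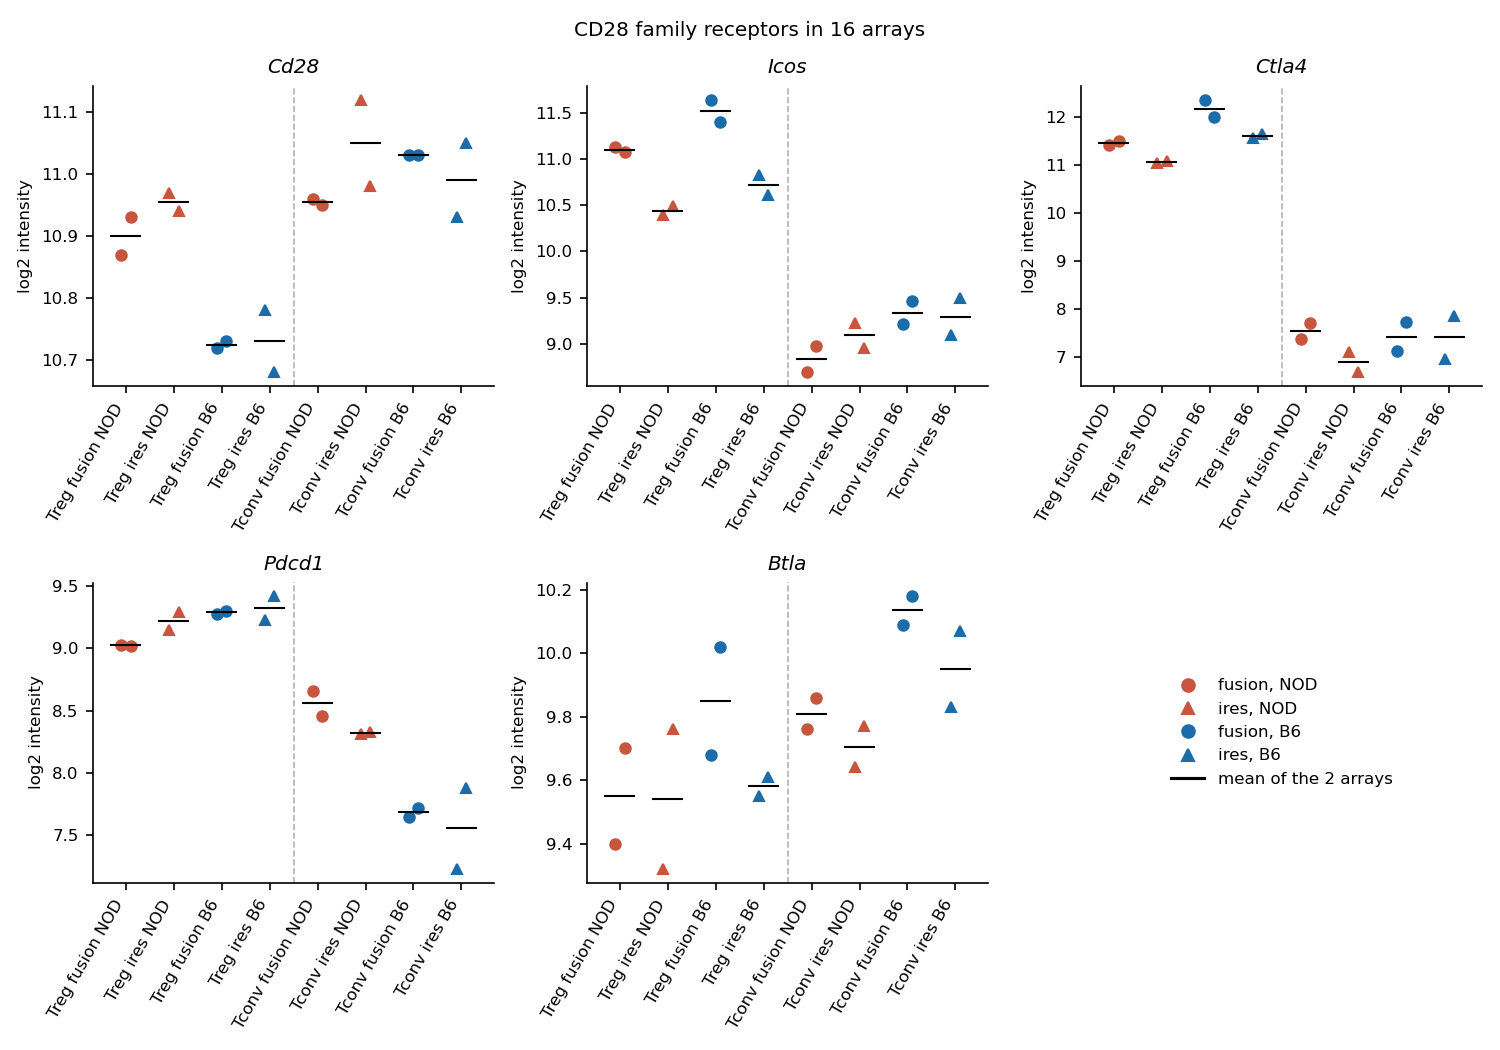
Log2 intensity (vertical axes, each with its own range) of the 5 receptor genes in 16 arrays of 8 groups, with circles for fusion, triangles for ires, red for NOD, blue for B6 and a bar at the mean of the 2 arrays; the dashed line parts Treg from Tconv. Ctla4, Icos and Pdcd1 are higher in all 8 Treg arrays than in all 8 Tconv arrays, Cd28 and Btla overlap, and Pdcd1 in Tconv is at 8.31 to 8.66 in NOD against 7.23 to 7.88 in B6.

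Markers of cell state differed along with these receptors. Of 7 activated cell markers 6 were called higher in Treg (median difference 2.80), among them Tnfrsf4 (3.15 ± 0.07), Itgae (3.46 ± 0.10) and Klrg1 (3.71 ± 0.15), and their summed intensity was 4885 to 8592 in Treg and 1158 to 1441 in Tconv. All 5 naive cell markers analysed here were called lower, with Ccr7 at -1.06 ± 0.07 and Lef1 at -1.03 ± 0.07, and sums of 7763 to 11070 in Treg against 14972 to 17031 in Tconv. All 6 Treg markers were called higher, and Foxp3 itself differed by 4.31 ± 0.11. Of 7 tested follicular helper markers, a state known for high Icos, Pdcd1 and Btla, 3 were called higher (Cxcr5 by 1.37 ± 0.16) and Pou2af1 was lower by -0.84 ± 0.09. The 6 T cell markers analysed here were all tested, with 2 called higher (Cd2 by 0.50 ± 0.06 and Cd5 by 0.43 ± 0.07), 2 lower (Cd4 by -0.36 ± 0.06 and Cd3d by -0.21 ± 0.06) and sums of 19516 to 23985 in Treg and 18365 to 21967 in Tconv. Of 7 CD8 T and NK cell markers 2, Ncr1 and Klrb1c, were too dim to be tested, and sums were 657 to 945 in Treg and 863 to 1220 in Tconv. Klrd1 was called lower in Treg by -2.35 ± 0.13, Cd8b1 was lower by -0.42 ± 0.08 and Cd8a was higher by 0.23 ± 0.08. Klrd1 ran from 3.71 to 4.53 in Treg, under the brightness needed for testing (log2 6.06). In Tconv, Itgae (5.72 to 6.27) and Klrg1 (5.11 to 6.41) lay near or below that brightness. The sizes of the Klrd1, Itgae and Klrg1 differences thus rest on these dim signals. Of the B cell markers, 7 of 10 on the array, Cd79a and Ms4a1 among them, were too dim to be tested. Of the 3 tested, Cd79b was called higher in Treg by 0.69 ± 0.09, and sums over the 10 were 466 to 589 in Treg and 412 to 776 in Tconv. The part of these marker genes in the receptor differences was not tested.

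The next question was how the receptors differ between the reporter alleles. On each background, each allele came in its own mouse line. The allele and other differences between the lines therefore cannot be told apart. In Treg, Icos was higher with the fusion allele than with ires, by 1.66-fold over both backgrounds, and none of the other receptors was called. Of the 5 genes 1 was called higher, against 0.609% of all tested genes called, 0.398% higher. The fusion arrays were at 11.13, 11.07, 11.64 and 11.40, against 10.39, 10.49, 10.82 and 10.61 in ires arrays, with no overlap between the alleles. The difference was 0.73 ± 0.11 (95% interval 0.50 to 0.96, adjusted p = 0.00243), and it was called whichever array was left out (0.67 to 0.79).

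Within NOD the Icos difference was 0.66 ± 0.16 (adjusted p = 0.251), where 0.102% of genes and 0 of the 5 receptors were called in limma, with 1 of 5 at an unadjusted p under 0.05. Within B6 it was 0.80 ± 0.16 (adjusted p = 0.0297), where 0.344% of genes (0.289% higher) and 1 of the 5 receptors were called, and leaving out any of the 4 B6 Treg arrays raised the adjusted p above the threshold, to between 0.0601 and 0.387. The difference between the backgrounds was -0.14 ± 0.22 (95% interval -0.60 to 0.32), with 0.0391% of genes and 0 receptors called, and 0 of 5 at an unadjusted p under 0.05. The 2 backgrounds thus gave values of one sign and similar size, but only the pooled value kept its call through the loss of each array.

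In Tconv the same allele comparison gave -0.11 ± 0.11 for Icos, with a 95% interval from -0.34 to 0.12. No receptor gene was called there, 0 of 5 also at an unadjusted p under 0.05, beside 0.0234% of all genes. The test of the allele difference in Treg minus that in Tconv gave 0.84 ± 0.16 for Icos (95% interval 0.52 to 1.17, adjusted p = 0.0549), just short of the threshold, in a comparison where 0.0469% of genes were called. That p ran from 0.00776 to 0.0856 over the other settings and from 0.0252 to 0.188 when 1 array was left out.

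Ctla4, the neighbour of Icos, was not called between fusion and ires Treg, with a difference of 0.49 ± 0.17 (95% interval 0.14 to 0.83, adjusted p = 0.319), with 0.40 ± 0.23 in NOD and 0.57 ± 0.23 in B6. In each background both fusion arrays lay above both ires arrays, but Treg fusion NOD at 11.43 and 11.50 lay below Treg ires B6 at 11.58 and 11.66. The difference was called (adjusted p = 0.0193) when only the 4 Treg groups entered the fit. In Tconv Ctla4 differed by 0.33 ± 0.17 between the alleles (95% interval -0.02 to 0.68, adjusted p = 0.999), and its own test of Treg minus Tconv gave 0.15 ± 0.23. The remaining receptors gave Treg differences of -0.03 ± 0.08 (Cd28), -0.12 ± 0.11 (Pdcd1) and 0.14 ± 0.11 (Btla), with 95% intervals that reach no farther than -0.35 and 0.37.

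Among the lists, few genes moved with the allele in Treg. Of 7 activated cell markers 1 was called, Itgae, the alpha chain of an epithelium-binding integrin, higher by 0.71 ± 0.14, and their summed intensity was 5343 to 8592 in fusion and 4885 to 6616 in ires Treg. Of 5 naive cell markers Il7r was higher by 0.44 ± 0.09. Of 13 known or candidate regulators of the family, Prdm1 (Blimp-1) was higher by 1.01 ± 0.12 and Bcl6, the repressor that drives the follicular helper programme, was lower by -0.45 ± 0.10. The part of these genes in the Icos difference was not tested. Foxp3, whose transcript carries the reporter, differed by -0.43 ± 0.16 and was not called (adjusted p = 0.396).

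**Figure D2:**
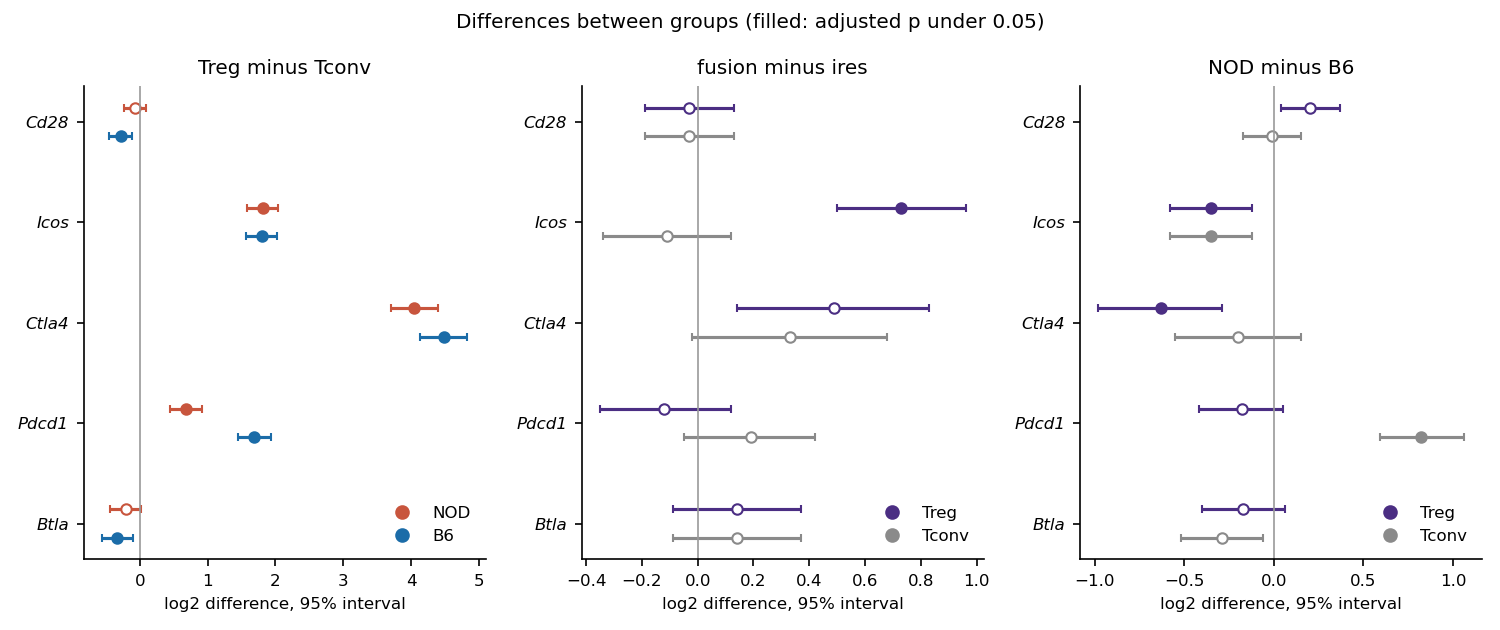
Log2 differences (horizontal axes) with 95% intervals for the 5 receptor genes between Treg and Tconv (left, NOD above B6), fusion and ires (middle, Treg above Tconv) and NOD and B6 (right, Treg above Tconv); filled points passed the adjusted p threshold of 0.05. The Icos difference between the alleles is 0.73 in Treg and -0.11 in Tconv, and the Pdcd1 difference between the backgrounds is -0.18 in Treg and 0.82 in Tconv.

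The background comparison asked how the receptors differ between NOD and B6. In Tconv, Pdcd1 was higher in NOD by 1.77-fold and Icos was lower by 1.28-fold; in Treg, Ctla4 and Icos were lower in NOD by 1.55-fold and 1.28-fold. Of the 5 receptors 1 was called higher and 1 lower in Tconv, where 15.9% of genes were called (9.39% higher and 6.49% lower), and 2 were called lower in Treg, where 21% were called (9.82% lower). With shares of the whole table this large, a count of 2 in 5 receptors sets them little apart from other genes.

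Pdcd1 in Tconv was at 8.66, 8.46, 8.31 and 8.33 in NOD, against 7.65, 7.72, 7.23 and 7.88 in B6. The ranges did not overlap, on either allele. The difference was 0.82 ± 0.11 (95% interval 0.59 to 1.06, adjusted p = 8.32e-05), with 0.88 for fusion and 0.77 for ires. In Treg the same probe set was at 9.03, 9.02, 9.15 and 9.29 in NOD and at 9.28, 9.30, 9.23 and 9.42 in B6, a difference of -0.18 ± 0.11 (adjusted p = 0.246). The difference in Treg minus that in Tconv was itself tested and gave -1.01 ± 0.16 (95% interval -1.34 to -0.67, adjusted p = 0.00222). In that test 0.82% of all genes were called (0.57% lower), and Pdcd1 was the 1 receptor called. The other receptors gave 0.21 ± 0.11 (Cd28), -0.43 ± 0.23 (Ctla4), 0.00 ± 0.16 (Icos) and 0.12 ± 0.15 (Btla). Of the Treg markers, Tnfrsf18 (-0.94 ± 0.12) and Lrrc32 (-0.93 ± 0.17) were called lower in the same test, and the others were negative but not called. Of the activated cell markers, Klrg1 (-1.44 ± 0.31) and Tnfrsf4 (-0.97 ± 0.13) were called lower, and the others were not called. Klrg1 was dim in Tconv, as given above. The myeloid marker Itgam was also called lower (-0.83 ± 0.19), and Eomes, of the CD8 T and NK cell markers, was called higher (0.99 ± 0.21). The part of these markers in the Pdcd1 value was not tested.

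Treg markers moved with Pdcd1 in Tconv. Of 6, 5 were called higher in NOD Tconv: Tnfrsf18 (0.73 ± 0.08), Il2ra (0.85 ± 0.21), Ikzf2 (0.61 ± 0.13), Nrp1 (0.48 ± 0.14) and Foxp3 (0.50 ± 0.16). Lrrc32 was not (-0.11 ± 0.12). Their summed intensity was 1156 to 1567 in NOD Tconv and 820 to 984 in B6 Tconv, beside 11347 to 13916 in Treg. All 6 markers were bright enough to be tested when all 16 arrays were counted. Il2ra was at 5.27, 5.56, 5.36 and 5.82 in B6 Tconv, under the brightness needed for testing (log2 6.06). In NOD Tconv it was at 5.91, 6.82, 6.94 and 5.73. The size of the Il2ra difference thus rests on dim signals. Foxp3 was at 7.12 and 8.18 in Tconv fusion NOD and at 7.57 and 7.68 in Tconv ires NOD, against 7.09, 7.06, 7.40 and 7.01 in B6 Tconv. Without the array at 8.18 the Pdcd1 difference was 0.87 (adjusted p = 2.90e-04). The part of these marker genes in the Pdcd1 difference was not tested. The NOD minus B6 difference of Ctla4 in Tconv was -0.20 ± 0.17 and was not called (adjusted p = 0.393).

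**Figure D3:**
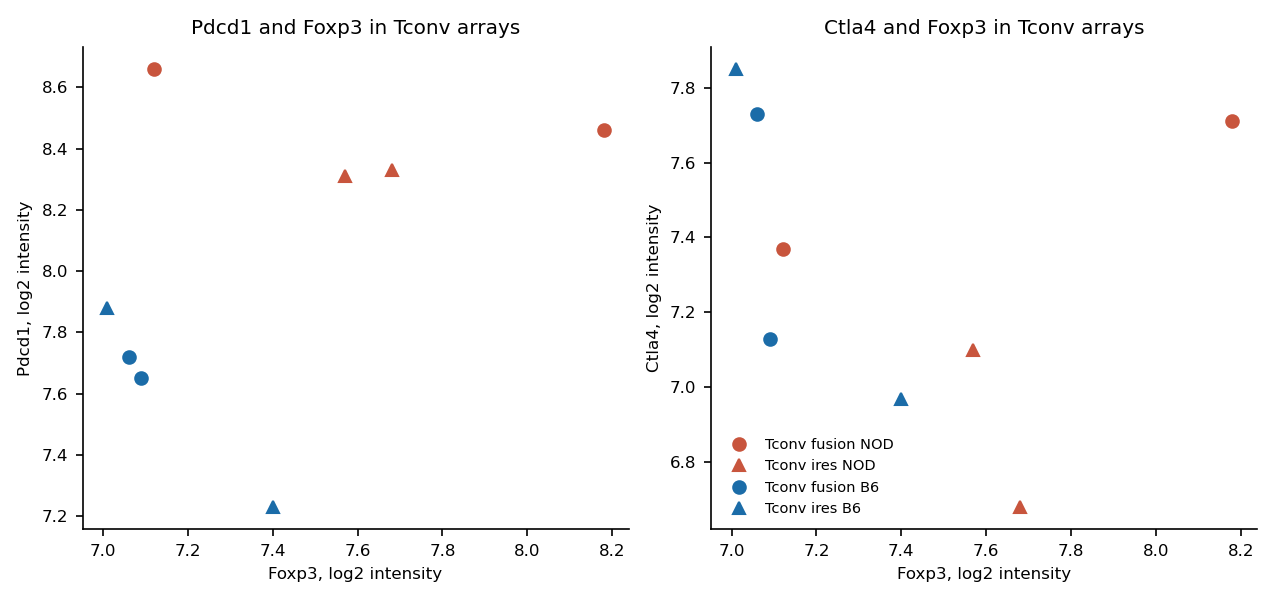
Pdcd1 (left) and Ctla4 (right) against Foxp3 in the 8 Tconv arrays, all as log2 intensity, with red for NOD, blue for B6, circles for fusion and triangles for ires. The 4 NOD arrays have Pdcd1 between 8.31 and 8.66 over a Foxp3 range of 7.12 to 8.18, all above the B6 arrays, while Ctla4 overlaps between the backgrounds.

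Other state markers in Tconv gave mixed values. Of 7 activated cell markers, Cd44 (0.65 ± 0.12) and Tnfrsf4 (0.55 ± 0.10) were higher in NOD and Tnfrsf9 was lower (-0.42 ± 0.09), with sums of 1230 to 1431 in NOD and 1158 to 1441 in B6. Of 7 tested follicular helper markers 0 were called in limma, with 3 at an unadjusted p under 0.05, and sums were 2172 to 2588 in NOD and 1880 to 2406 in B6. Of the regulators, Irf4 was higher by 0.51 ± 0.13 and Prdm1 by 0.36 ± 0.12, besides Foxp3. Of the CD8 T and NK cell markers Klrd1 was lower by -0.66 ± 0.19, and of the T cell markers Cd3e was higher by 0.54 ± 0.08 and Cd3g by 0.24 ± 0.07. T cell sums (20925 to 21967 in NOD, 18365 to 19163 in B6) did not overlap. Nor did naive cell sums (15989 to 17031 in NOD, 14972 to 15813 in B6). B cell sums were 412 to 776 in NOD and 448 to 493 in B6, with the 776 in Tconv fusion NOD. The part of these genes in the receptor and ligand differences was not tested.

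Icos in Tconv was at 8.69, 8.98, 9.23 and 8.95 in NOD and at 9.21, 9.46, 9.10 and 9.49 in B6, ranges that overlap at ires NOD replicate 1. The difference was -0.35 ± 0.11 (95% interval -0.58 to -0.12, adjusted p = 0.0376), and 4 of 16 fits without 1 array lost the call. In Treg Icos also differed by -0.35 ± 0.11 (adjusted p = 0.031), with 5 of 16 such fits losing it. Here the alleles cross the backgrounds, since Treg fusion NOD lay above Treg ires B6.

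Ctla4 in Treg was lower in NOD by -0.63 ± 0.17 (95% interval -0.98 to -0.29, adjusted p = 0.0116), with -0.71 for fusion and -0.55 for ires. All 4 NOD Treg arrays, at 11.05 to 11.50, lay below all 4 B6 arrays, at 11.58 to 12.37. Leaving out Treg fusion B6 replicate 1, the highest array, gave -0.54 (adjusted p = 0.0789). Activated cell markers moved the same way: 4 of 7 were lower in NOD Treg, Klrg1 by -1.07 ± 0.22, Tnfrsf9 by -0.72 ± 0.09, Mki67 by -0.55 ± 0.16 and Tnfrsf4 by -0.43 ± 0.10, whereas Cd44 was higher by 0.62 ± 0.12. Their sums were 4885 to 5730 in NOD and 5804 to 8592 in B6 Treg, without overlap. Of the 6 Treg markers 1 was called, Lrrc32, lower by -1.04 ± 0.12. Of the naive cell markers S1pr1 was higher by 0.41 ± 0.09 and Ccr7 by 0.35 ± 0.10, and Il7r was lower by -0.30 ± 0.09.

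Markers of other cell types also differed between NOD and B6 Treg. Summed CD8 T and NK cell markers were at 657 to 839 in NOD and 840 to 945 in B6, with Cd8b1 lower by -0.57 ± 0.11 and Cd8a by -0.50 ± 0.12 but Eomes higher by 0.63 ± 0.15. Summed myeloid and dendritic markers were at 633 to 717 in NOD and 744 to 825 in B6, with Lyz2 lower by -0.60 ± 0.20 and Itgam by -0.45 ± 0.13. Neither pair of ranges overlapped. Of the 12 myeloid and dendritic markers, 5 were too dim to be tested. In Treg, Lyz2 (4.92 to 6.25) and Itgam (5.76 to 6.57) lay near or below the brightness needed for testing (log2 6.06). The myeloid and dendritic values thus rest on dim signals. Follicular helper sums (2498 to 2755 in NOD, 2082 to 2426 in B6) and T cell sums (22006 to 23985 in NOD, 19516 to 21836 in B6) were higher in every NOD array. Of the follicular helper markers only Bcl6 (0.44 ± 0.10) and Slamf6 (0.40 ± 0.10) were called higher, and Sh2d1a was at -0.35 ± 0.15, not called. Of the T cell markers Cd3e was higher by 0.51 ± 0.08, while Cd3d was at -0.27. B cell sums overlapped (466 to 528 in NOD, 519 to 589 in B6). The part of these and the activated, naive and Treg marker genes in the Ctla4 and Icos differences was not tested.

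Cd28 in Treg differed by 0.20 ± 0.08 between NOD and B6 and was not called (95% interval 0.04 to 0.37, adjusted p = 0.0646). Its NOD Treg arrays, at 10.87, 10.93, 10.97 and 10.94, all lay above the B6 Treg arrays, at 10.72, 10.73, 10.78 and 10.68. In Tconv the difference was -0.01 ± 0.08. Btla was at -0.17 ± 0.11 in Treg (adjusted p = 0.275) and -0.29 ± 0.11 in Tconv (adjusted p = 0.0792).

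Ordered by group mean, the receptors fell into separate patterns. For Ctla4 and Icos the order began with Treg fusion B6 (12.18 ± 0.26 and 11.52 ± 0.17, SD, n = 2), and all Treg groups preceded all Tconv groups. Neighbouring groups of Icos differed beyond the half-width of the 95% interval (0.33) between Treg fusion B6 and Treg fusion NOD, between Treg fusion NOD and Treg ires B6, and between Treg ires NOD and the first Tconv group. For Pdcd1 no Treg group differed from its neighbour in Treg, and the steps beyond 0.33 were those from Treg fusion NOD (9.03 ± 0.01) to Tconv fusion NOD (8.56 ± 0.14) and from Tconv ires NOD (8.32 ± 0.01) to Tconv fusion B6 (7.68 ± 0.05). For Cd28 and Btla no neighbours differed beyond that half-width (0.23 and 0.33). Cd28 was highest in Tconv ires NOD (11.05 ± 0.10) and lowest in Treg fusion B6 (10.72 ± 0.00), and Btla was highest in Tconv fusion B6 (10.13 ± 0.06) and lowest in Treg ires NOD (9.54 ± 0.31).

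The genes of the ligands are best known in antigen-presenting cells, and activated T cells can also carry several of them. Of the 6, 5 were called higher in Treg: Pdcd1lg2 (PD-L2) by 1.31 ± 0.09, Cd86 by 1.18 ± 0.08, Cd80 by 1.12 ± 0.08, Cd274 (PD-L1) by 0.61 ± 0.07 and Icosl by 0.46 ± 0.08. Tnfrsf14, which encodes the BTLA ligand HVEM, was lower by -0.37 ± 0.07. Cd80 ran from 6.74 to 7.19 in Treg and from 5.54 to 6.17 in Tconv, and Cd86 from 7.15 to 7.75 in Treg and from 5.66 to 6.60 in Tconv. Cd274 ran from 9.12 to 9.56 in Treg and from 8.46 to 9.09 in Tconv. The ranges of these genes and of Pdcd1lg2 did not overlap, while those of Icosl and Tnfrsf14 did. In Tconv, Cd80, Pdcd1lg2 (5.75 to 6.26) and Icosl (5.85 to 6.36) lay near the brightness needed for testing (log2 6.06). So did Cd86 in NOD Tconv (5.66 to 6.11). Cd80 would not have been tested on its Tconv arrays alone. The size of these differences thus rests on dim Tconv signals. Myeloid and dendritic markers, 5 of 12 too dim to be tested (Itgax and Csf1r among them), had sums of 633 to 825 in Treg and 665 to 812 in Tconv, and of the 7 tested Fcgr3 was called lower in Treg by -0.21 ± 0.07.

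Tnfrsf14 was higher in NOD on both sides of the sort, by 0.73 ± 0.09 in Treg (adjusted p = 2.28e-05) and by 1.03 ± 0.09 in Tconv (adjusted p = 3.73e-07). It was at 9.84 to 9.95 in NOD Treg against 9.06 to 9.25 in B6 Treg, and at 10.18 to 10.54 in NOD Tconv against 9.27 to 9.48 in B6 Tconv. In Treg, Icosl (-0.52 ± 0.11) and Pdcd1lg2 (-0.47 ± 0.12) were lower in NOD, and in Tconv Cd86 was (-0.56 ± 0.11). The size of the Cd86 difference rests on the dim NOD Tconv signals given above. The myeloid and dendritic sums, which rest on dim signals as given above, were lower in NOD Treg without overlap. In Tconv these sums were 665 to 790 in NOD and 770 to 812 in B6, with Batf3 lower by -0.42 ± 0.10. The part of these markers in the ligand differences was not tested. No ligand gene was called between the alleles in Treg, 0 of 6 in limma, with 2 at an unadjusted p under 0.05.

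**Figure D4:**
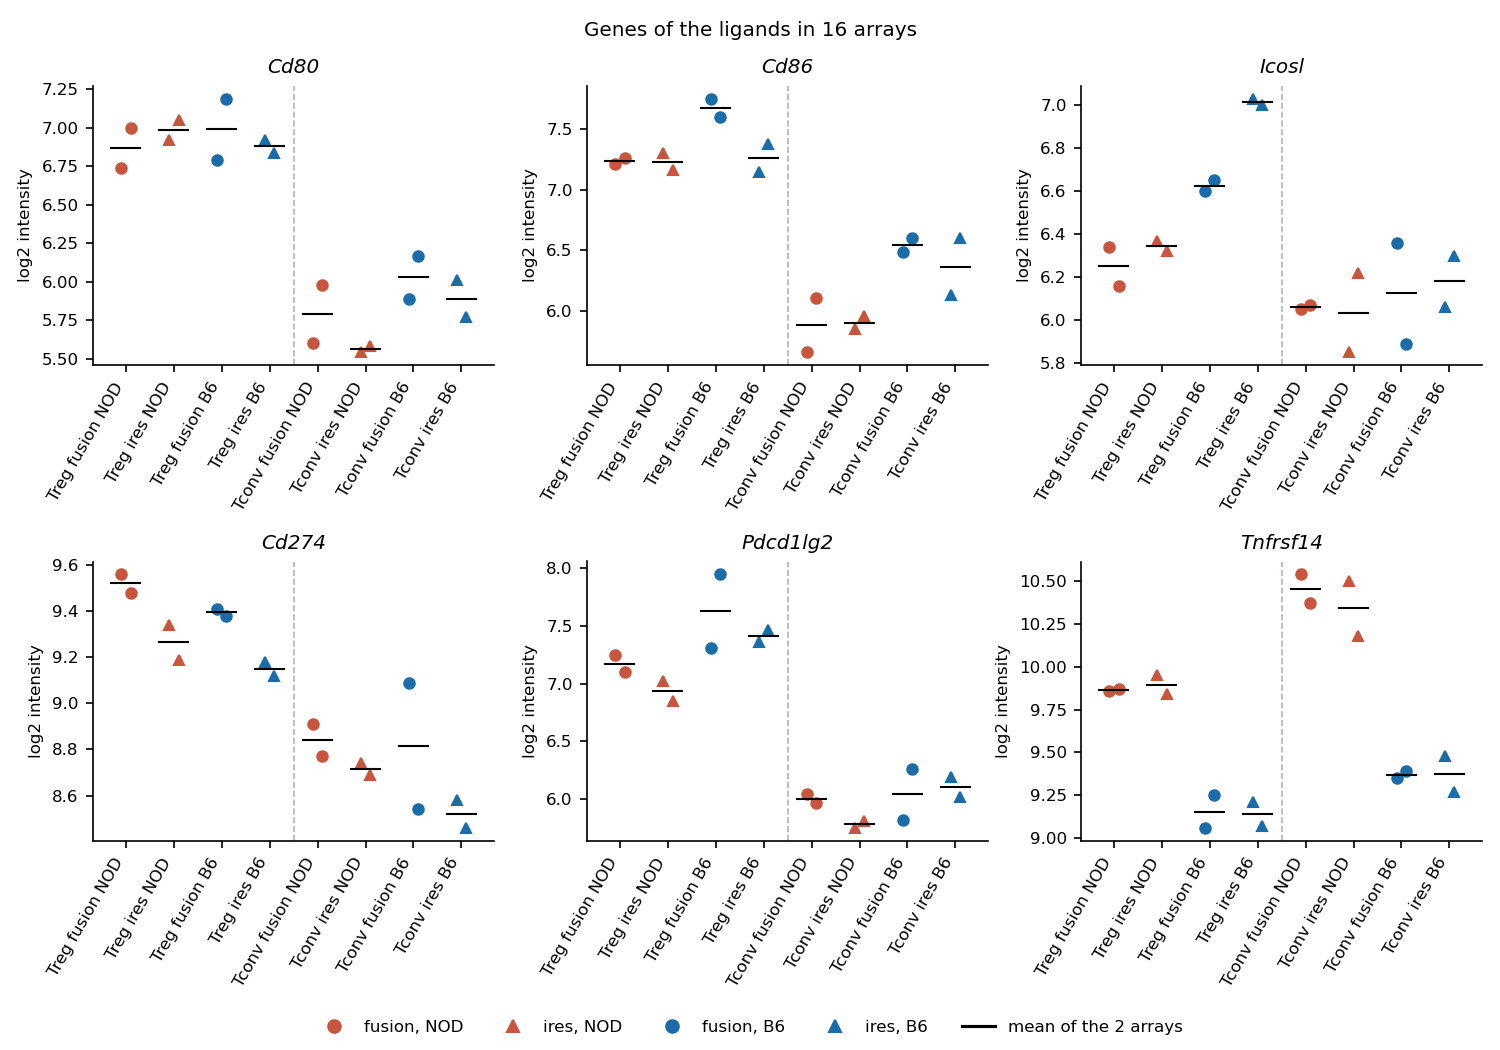
Log2 intensity (vertical axes, each with its own range) of 6 ligand genes in 16 arrays of 8 groups, with circles for fusion, triangles for ires, red for NOD, blue for B6 and a bar at the mean of the 2 arrays; the dashed line parts Treg from Tconv. Tnfrsf14 is at 9.84 to 10.54 in NOD and 9.06 to 9.48 in B6, and Cd80, Cd86, Cd274 and Pdcd1lg2 separate Treg from Tconv.

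Signalling genes below the receptors were called in both directions between Treg and Tconv, where 28.6% of all tested genes were called. Of 14 tested genes of costimulatory signalling 0 were called higher and 5 lower: Grap2 (an adaptor that binds CD28) by -0.53 ± 0.06, Pik3cd (a catalytic subunit of PI3-kinase) by -0.50 ± 0.07, Malt1 by -0.22 ± 0.06, Pdpk1 by -0.21 ± 0.06 and Prkcq (protein kinase C theta) by -0.17 ± 0.06. The list's median was 0.01. Of 9 tested inhibitory signalling genes 4 were called higher and 2 lower. Inpp5d, the lipid phosphatase SHIP-1, was higher by 0.61 ± 0.06, and Ppp2r1a, a subunit of protein phosphatase 2A, by 0.23 ± 0.07. Dgka, a diacylglycerol kinase, was lower by -0.39 ± 0.06 and Ptpn6, the phosphatase SHP-1, by -0.29 ± 0.07. The list's median was 0.15.

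Of 11 genes linked to CTLA-4 trafficking 1 was called higher and 2 lower, a share near that of all tested genes. Lrba, which protects CTLA-4 from lysosomal breakdown, was higher in Treg by 0.61 ± 0.06, and Trat1, an adaptor that carries CTLA-4 to the surface, was lower by -0.55 ± 0.09. Rab8a was lower by -0.14 ± 0.05. Lrba was also higher in fusion than in ires Treg, by 0.42 ± 0.08 (adjusted p = 0.0159), and so was Malt1, a protease of antigen receptor signalling, by 0.37 ± 0.08 (adjusted p = 0.0479). Of 13 regulators 8 were called higher in Treg and 0 lower, beside 16.7% and 11.9% of all tested genes. Among them were Prdm1 (1.77 ± 0.08), Irf4 (1.75 ± 0.09) and Maf (1.56 ± 0.09), and the list's median was 0.30.

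Between NOD and B6 Treg, 5 of the 14 costimulatory signalling genes were called higher in NOD and 0 lower. Across all tested genes 21% were called in this comparison, 9.82% lower. Malt1 was at 0.49 ± 0.08, Tbk1 at 0.39 ± 0.10, Pdpk1 at 0.36 ± 0.08 and Pik3ca at 0.31 ± 0.09. The median of the list was 0.17, against -0.02 over all tested genes. Malt1 (0.42 ± 0.08) and Pdpk1 (0.39 ± 0.08) were higher in NOD Tconv too. Of the inhibitory signalling genes, Dgka (0.39 ± 0.08) and Cblb (0.35 ± 0.08) were higher in NOD Treg, and Ptpn11, which encodes the phosphatase SHP-2 that PD-1 recruits, in NOD Tconv (0.40 ± 0.09). Of the trafficking genes Trat1 (0.44 ± 0.12) and Ap1m1 (0.32 ± 0.09) were higher in NOD Treg.

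The genes most like each receptor are given by Pearson's r over the 16 arrays, a description in which the groups carry most of the variation. Ctla4 was followed most closely by Tnfrsf1b (0.992), Samsn1 (0.991) and Serinc3 (0.989), and Icos by Il10ra (0.985), Sytl2 (0.982) and S100a6 (0.978). The closest to Pdcd1 were P2rx7 (0.971), Mmd (0.966) and Lrmp (0.961). For Cd28 they were Gpcpd1 (0.915), Smarca2 (0.906) and Rflnb (0.895), and for Btla Foxn2 (0.908), Prkd2 (0.903) and AW549877 (0.899).

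After the mean of each cell type was subtracted, the closest genes changed for most receptors. Pdcd1 was then closest to Lrmp (0.920), P2rx7 (0.877) and Tnfrsf18 (0.859), and Icos to Sytl2 (0.897), Mlkl (0.896) and Il10ra (0.875). Ctla4 was closest to Sec11c (0.895), Icam1 (0.888) and Yaf2 (0.887), Btla to Setdb1 (0.927), Zfp322a (0.895) and AW549877 (0.879), and Cd28 to Fcrl1 (0.859), Il18r1 (0.845) and Zfp169 (0.837). Between the receptors themselves, r over the 16 arrays was 0.96 for Ctla4 with Icos, 0.87 for Ctla4 with Pdcd1 and 0.76 for Icos with Pdcd1. With the cell type means removed these became 0.69, 0.11 and -0.31.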

How the data were processed

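Expression was measured on 16 arrays of 8 groups. The deposited intensity values are linear and, per the submitters' processing notes, the authors made them with RMA in Affymetrix Power Tools. Neither version nor genome build is stated in the sources used here. Log2 values were taken without a pseudocount. Of 25108 probe sets, 21157 carried 1 gene symbol, 1341 several and 2610 none. Where a gene had several probe sets, the brightest on average stood for it, and genes above the 40th percentile (log2 6.06) on at least 2 arrays were tested (12798).

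A model with 1 mean per group was fitted with limma 3.58.1 in R 4.3.3 (8 residual and 9.80 prior degrees of freedom). Tests were two-sided, Benjamini-Hochberg adjusted over the tested genes, with a threshold of 0.05. Replicate numbers were not taken as pairs, although an effect shared by same-numbered arrays was not excluded. The fit was tested on simulated data. Python 3.11.15 (matplotlib 3.10.9, pandas 2.3.3, numpy 2.4.6) made the tables and figures. Strain differences in the probes' target sequences were not examined.

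The receptors and gene lists were chosen with earlier results of these data known. The text names the 5 receptors, 6 ligands, Foxp3, up to 4 called genes per other list, taken from the largest difference down, and the 3 genes most like each receptor; further list members are named where they complete a count of 5 or fewer. Lists other than the receptors and ligands were costimulatory and inhibitory signalling, CTLA-4 trafficking, regulators and markers of activated, naive, follicular helper, regulatory, T, B, myeloid, and CD8 and NK cells. Some listed genes are not reported here, and counts are over the genes tested.

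Alternatives were no filter, a filter at the 60th percentile, centring on array medians, quantile normalization, variances with a trend and robust fit, weighting of arrays, averaging of probe sets, replicate blocks, the interquartile range of an array as covariate, only the groups compared, and each array left out in turn.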

Additional observations from a re-analysis of the deposited data

Results flagged for a closer look

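Pdcd1 is given here because the difference between NOD and B6 in Treg minus that in Tconv was itself tested and passed, at -1.01 ± 0.16 (adjusted p = 0.00222). The NOD minus B6 difference of Pdcd1 was -0.18 in Treg and 0.82 in Tconv. Some Treg and activated cell markers and Itgam were called lower in the same test, and Eomes was called higher, as given above. The Pdcd1 value of that test lay between -1.03 and -0.95 under the other settings. It lay between -1.17 and -0.84 when 1 array was left out, and it was called in each of these fits.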

How the results depend on the processing

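Calls of Ctla4, Icos and Pdcd1 between Treg and Tconv, of Icos between the alleles in Treg over both backgrounds, and of Pdcd1 between NOD and B6 in Tconv and in the Treg minus Tconv test held in every alternative run. The causes of the changes below were not tested. In B6, the Btla difference between Treg and Tconv lost its call with no filter (-0.33), centring (-0.35) and array weights (-0.33). Between fusion and ires Treg, Ctla4 was called when only the compared groups were fitted (0.49, and 0.57 in B6), so that 2 receptors were called in each. Icos in B6 lost its call with array weights (0.80) and the interquartile covariate (0.72), leaving 0 called. Icos in the Treg minus Tconv allele test was called, as 1 receptor, with the 60th percentile filter, trend and robust variances and the replicate block (0.84 each) and with the interquartile covariate (0.82).

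Between NOD and B6 Treg, Cd28 was called with the 60th percentile filter, trend and robust variances and the block (0.20 each) and quantile normalization (0.24), Btla with the interquartile covariate (-0.29), while Ctla4 lost its call with trend and robust variances (-0.63) and Icos with centring (-0.29), leaving 1 called. In Tconv, Icos lost its call with no filter (-0.35), centring (-0.27), the interquartile covariate (-0.46) and only the compared groups (-0.35), leaving 1 called in the first, second and last of these, and Btla was called with quantile normalization (-0.33), trend and robust variances and the block (-0.29 each) and the interquartile covariate (-0.49). Centring moved the median of all genes to 0.11 in this comparison and to -0.14 in the allele test of NOD minus B6.

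Signs turned only for differences that were not called. With centring these were Cd28 (0.05) and Pdcd1 (0.03) between alleles in B6 Treg, Btla in NOD Treg (-0.03), Cd28 and Btla in the allele test of Treg minus Tconv (0.01 each), Cd28 between NOD and B6 Tconv (0.08) and Icos in the background test of Treg minus Tconv (-0.02). In the allele test of NOD minus B6, Cd28 turned with quantile normalization (0.05) and the interquartile covariate (0.01), and Ctla4 with that covariate (0.16).

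With 1 array left out, differences between Treg and Tconv ranged from -0.20 to -0.16 for Cd28, and in B6 from -0.32 to -0.25 for Cd28 and -0.42 to -0.25 for Btla. Between alleles in B6 Treg the ranges were 0.69 to 0.92 (Icos), -0.05 to 0.04 (Cd28) and -0.13 to 0.06 (Pdcd1), and in NOD Treg -0.21 to 0.22 (Btla). In the NOD minus B6 test they were -0.09 to 0.00 (Cd28) and -0.35 to 0.02 (Ctla4), and in Tconv -0.06 to 0.01 (Cd28). In the allele test of Treg minus Tconv they were -0.04 to 0.03 (Cd28), -0.07 to 0.37 (Ctla4), 0.74 to 0.94 (Icos) and -0.11 to 0.11 (Btla). Between NOD and B6 they were -0.73 to -0.54 (Ctla4) and -0.41 to -0.29 (Icos) in Treg, and -0.04 to 0.03 (Cd28), -0.42 to 0.02 (Ctla4) and -0.45 to -0.26 (Icos) in Tconv, with -0.10 to 0.10 for Icos in Treg minus Tconv. Receptors called then numbered 3 to 5 between Treg and Tconv in B6, 0 to 1 between alleles in B6 Treg and in the allele test of Treg minus Tconv, and 0 to 2 in Treg and 1 to 2 in Tconv between NOD and B6.

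Replicate numbers were shared by the groups, and they were not taken as pairs. Deviations of same-numbered arrays correlated by -0.371 to 0.465 over 28 pairs of groups (median 0.146, 16 above 0.1). An effect shared by same-numbered arrays was not excluded. Btla, for example, was higher in replicate 2 than in replicate 1 in all 8 groups. Between NOD and B6 the block lowered the SE of Btla from 0.11 to 0.08. It raised the receptors called to 3 in Treg, adding Cd28 (adjusted p = 0.0494), and 3 in Tconv, adding Btla (adjusted p = 0.0227).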
